A study of Mus musculus with 12 samples.

Results

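The replication-dependent histone genes supply the linker histones (H1) and the core histones (H2A, H2B, H3 and H4) that package newly made DNA. Their members were chosen by symbol, as protein-coding genes named H1f1 to H1f5 or H2ac, H2bc, H3c or H4c followed by a number, and 67 of the 56065 genes in the count table (21599 of them protein-coding) met this rule. There were 5 H1, 18 H2A, 19 H2B, 12 H3 and 13 H4 genes. They were measured in submandibular glands (SMGs) of mice aged 8 weeks, with 3 biological replicates in each of 4 groups. Wild-type (WT) females and WT males were C57BL/6J mice, and Pou2f3-/- females and Pou2f3-/- males came from the knockout line C57BL/6J-Pou2f3em1Cbwi/J (C57BL/6J-Pou2f3-/-). That line lacks Pou2f3, the transcription factor that specifies tuft cells (TCs), in every cell of the body and not only in the gland, and no allele or treatment was shared by all 4 groups.

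In cycling cells these genes are switched on together at the start of S phase, under the coactivator NPAT, and their mRNAs are broken down when DNA synthesis ends. The mRNAs have no introns and, alone among animal mRNAs, no poly(A) tail: they end just after a short stem-loop that is bound by SLBP and cut with the help of the U7 small nuclear RNA. Histones that are made outside S phase, such as H3.3 from H3f3a and H3f3b, come from other genes with polyadenylated mRNAs.

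The stem-loop that stands for the poly(A) tail was looked for in the GRCm39 genome, as a perfect inverted repeat of 6 bases around a loop of 4 bases within 120 bases after the stop codon, and 65 of the 67 genes had one. No such repeat was found in that window for H2bc21 and H2ac22. The capitals below mark both arms of the stem in genes that recur in the results, read on the coding strand. H2ac18 is the most abundant member, H4c17 has a coding sequence identical to that of H4c18, and H4c14 and H3c7 carry rarer loops or arms.
H2ac18: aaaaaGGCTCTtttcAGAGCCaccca
H4c17: ctaaaGGCCCTtttcAGGGCCatcca
H4c14: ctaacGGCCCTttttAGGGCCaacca
H3c7: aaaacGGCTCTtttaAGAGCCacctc
The hairpin of H2ac18 lies at chr3:96153348-96153363 on the plus strand and begins 58 bases after the stop codon. The form of H2ac18 was shared by 42 members, that of H4c17 by 8, that of H3c7 by 8 and that of H4c14 by 2, and 4 further forms made up the other 5 members with a hairpin. Every H1, H2A, H2B and H3 gene with a hairpin had a stem that opens with GGCTCT. In H4 genes the stem opened with GGCCCT, except in H4c2 and H4c11, where it opened with GGTCCT.

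The members lie on 4 chromosomes: 53 on chromosome 13, 10 on chromosome 3, 3 on chromosome 11 and 1, H4c16, on chromosome 6. In 13 places an H2A gene and an H2B gene stand head to head, with 278 to 334 bases between their coding starts. The stretches between the annotated transcript starts are given for 2 of these pairs whose members recur in the results (GRCm39, plus strand). Capitals mark CCAAT, a site of the factor NF-Y, and the promoter element TATAAA, on either strand (those on the minus strand read here as reverse complements).
H2bc7 and H2ac7, chr13:23758371-23758554: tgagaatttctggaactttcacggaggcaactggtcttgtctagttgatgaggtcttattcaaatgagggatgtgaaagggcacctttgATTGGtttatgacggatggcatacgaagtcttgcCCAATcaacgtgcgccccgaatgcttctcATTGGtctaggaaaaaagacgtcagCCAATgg
H2ac20 and H2bc21, chr3:96128197-96128434: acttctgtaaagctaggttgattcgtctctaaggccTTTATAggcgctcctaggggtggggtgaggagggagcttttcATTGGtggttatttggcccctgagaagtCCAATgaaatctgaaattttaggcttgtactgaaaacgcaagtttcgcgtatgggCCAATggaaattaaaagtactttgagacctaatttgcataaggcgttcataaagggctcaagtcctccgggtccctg
The H2bc7 and H2ac7 stretch, 184 bases long, held 4 CCAAT and 0 TATAAA on either strand, and the H2ac20 and H2bc21 stretch, 238 bases long, held 3 CCAAT and 1 TATAAA. In the last 184 bases before all 32851 RefSeq starts, CCAAT occurred in 27.8% and TATAAA in 9.10%, and in the last 238 bases in 32.8% and 11.8%. RefSeq promoter windows (GRCm38.p6, 250 bases before to 50 bases after the start) were matched to 57 of the 67 members by symbol. Of their 58 windows, 86.2% held CCAAT, 58.6% held TATAAA and 48.3% held both, against 37.4%, 13.6% and 5.31% of all windows. A match describes these letters only.

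Total estimated counts ran from 47032175 to 67882207 per library. A summed level of 15 markers of gland epithelium ran from 11201 to 24310 CPM (counts per 1000000 of the TMM effective library size) in female libraries and from 45068 to 75216 CPM in male libraries, so that the labelled tissue was represented in all 12. Pou2f3 itself, counted at 1, 0 and 2 in WT females, 0 in each Pou2f3-/- female, 1, 10 and 0 in WT males and 0, 3 and 1 in Pou2f3-/- males, was too low to check the genotype labels. The labels give the extracted molecule as polyA RNA, whereas the protocol describes ribosomal RNA-depleted total RNA. Non-polyadenylated RNAs were present in every library: a summed level of 11 non-polyadenylated noncoding genes ran from 93462 to 503784 CPM. The histone genes took 11262 to 24112 counts per library, or 0.0239% to 0.0386% of all counts. Whether the histone reads came from mRNAs without a tail was not tested.

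Of the 67 members, 62 passed the filter on low counts and were tested. H2ac1 and H2ac23 had 0 counts in every library, and H2bc1, the H2B of the testis, had at most 2. H2ac19 and H3c14 had counts in only 2 libraries each. By family, H4 genes took 28.1% of all histone counts, H2A genes 27.3%, H1 genes 18.2%, H3 genes 13.7% and H2B genes 12.7%. Genes of chromosome 13 took 65.9% and those of chromosome 3 took 30.0%.

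The members differed widely in level. Per kilobase of exon and averaged over the 12 libraries, H2ac18 stood at 95.6 CPM, H4c8 at 45.4, H4c17 at 19.9, H2ac20 at 16.996, and H3c13 and H1f2 at 16.2 each. The median of the 62 tested members on this scale was 3.12 CPM per kilobase. H2bc8 led the H2B genes at 10.9 CPM per kilobase. H2bc21, an H2B gene known from olfactory neurons, stood at 1.17 CPM per kilobase.

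The first question was whether loss of Pou2f3 went with other histone mRNA levels in female SMGs. Of the 62 tested members, 12 were down-regulated and 0 up-regulated in Pou2f3-/- females at an edgeR adjusted p under 0.05, where 36.9% of all 17893 genes tested were called, 19.3% lower and 17.6% higher. The share of members called lower was close to the background by edgeR. Other tools called more members, but their counts over all genes are for either direction and so are not a like background. DESeq2 called 20 of 62 members (all lower) and 6975 of 17893 genes in either direction, and limma on the authors' normalized values called 27 of 62 (all lower) and 6420 of 17893. The median log2 fold change of the members was -0.55, with 56 of 62 below 0, against 0.03 for all genes tested and -0.08 for protein-coding genes. Of the 62, 26 had every Pou2f3-/- female below every WT female and 0 had every one above, where 24.1% and 25.2% of all genes were so placed. Pou2f3-/- female replicate 3 was the lowest of its group in 49 of the 62 members, and without it 9 were called, with a median of -0.40 and a summed level 0.802 times that of WT females. Without Pou2f3-/- female replicate 2, 19 were called. Over all genes the calls were 5227 without replicate 3 and 6428 without replicate 2, against 6611 with every library. Counts were scaled by TMM, which sets the bulk of genes to no change, and this bears on each direction given below.

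H2ac18, an H2A gene of the chromosome 3 cluster and the most abundant member, had 3696, 4338 and 4048 normalized counts in WT females. It had 2328, 2646 and 2424 in Pou2f3-/- females, so that the groups did not overlap. Its log2 fold change was -0.71 (SE 0.11, adjusted p = 0.000568). H2ac20, of the same cluster, fell from 524, 607 and 463 to 354, 413 and 279 normalized counts (log2 fold change -0.60, SE 0.17, adjusted p = 0.0146). H4c14, an H4 gene of the same cluster, fell from 654, 766 and 863 to 475, 581 and 403 (log2 fold change -0.64, SE 0.15, adjusted p = 0.00490).

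Among the H2A and H2B genes of chromosome 13, the called genes with the largest changes had low counts. H2ac11 had 64.1, 28.5 and 72.3 normalized counts in WT females and 17.3, 23.3 and 3.72 in Pou2f3-/- females (log2 fold change -1.86, SE 0.67, adjusted p = 0.0452). H2bc7 had 76, 56 and 45 normalized counts in WT females and 13, 29 and 12 in Pou2f3-/- females (log2 fold change -1.69, SE 0.39, adjusted p = 0.00486). H2ac6 had 60, 48 and 63 against 6, 23 and 22 (log2 fold change -1.72, SE 0.43, adjusted p = 0.00818). In all 3 genes the groups did not overlap, although the counts were small, and the call of H2ac11 held in only 11 of 21 alternatives, against 21 of 21 for H2ac6 and 22 of 22 for H2bc7. H2ac7, which faces H2bc7 across the first sequence printed above, had 90, 69 and 59 against 70, 44 and 26 and was not called (log2 fold change -0.63, adjusted p = 0.20). H2bc4, which faces H2ac6 and is the H2B gene with most counts, had 999, 1117 and 1323 against 933, 789 and 905 (log2 fold change -0.39, adjusted p = 0.11). H2bc12 fell from 193, 148 and 202 to 74, 103 and 109 (log2 fold change -0.92, SE 0.24, adjusted p = 0.00947).

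The linker histones were unequal among themselves. H1f5 fell from 148, 100 and 146 normalized counts in WT females to 81, 77 and 46 (log2 fold change -0.95, SE 0.25, adjusted p = 0.00997). H1f1 fell from 161, 92 and 101 to 60, 64 and 62 (log2 fold change -0.93, SE 0.29, adjusted p = 0.0228). H1f2, the most abundant linker histone gene, had 1342, 1771 and 1867 in WT females and 1849, 1894 and 1358 in Pou2f3-/- females. These groups overlapped, with a log2 fold change of 0.04 (SE 0.18, adjusted p = 0.90), and H1f2 rose as a share of histone counts from 6.17%, 7.27% and 7.53% to 9.69%, 10.05% and 9.73%.

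Of the H3 and H4 genes on chromosome 13, H3c2 fell from 471, 376 and 446 normalized counts to 253, 262 and 187 (log2 fold change -0.88, SE 0.23, adjusted p = 0.0104). H4c18 fell from 302, 429 and 499 to 242, 308 and 237, with 1 Pou2f3-/- library above the lowest WT library (log2 fold change -0.64, SE 0.20, adjusted p = 0.0243). The most abundant H4 gene, H4c8, had 1186, 1476 and 1554 against 1186, 1208 and 886 and was not called (log2 fold change -0.36, SE 0.17, adjusted p = 0.11). H3c13, the H3 gene of highest count, was not called either (log2 fold change -0.33, SE 0.23, adjusted p = 0.29). H3c7 and H2ac11 completed the 12, with adjusted p of 0.0352 and 0.0452, the weakest calls of the set.

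By family, 2 of 5 H1, 4 of 15 H2A, 2 of 18 H2B, 2 of 11 H3 and 2 of 13 H4 genes were called lower, where 19.3% of all genes tested were. The family medians ran from -0.34 for H4 to -0.73 for H2B. The plot of fold changes by family shows the calls spread over all 5.

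**Figure D1:**
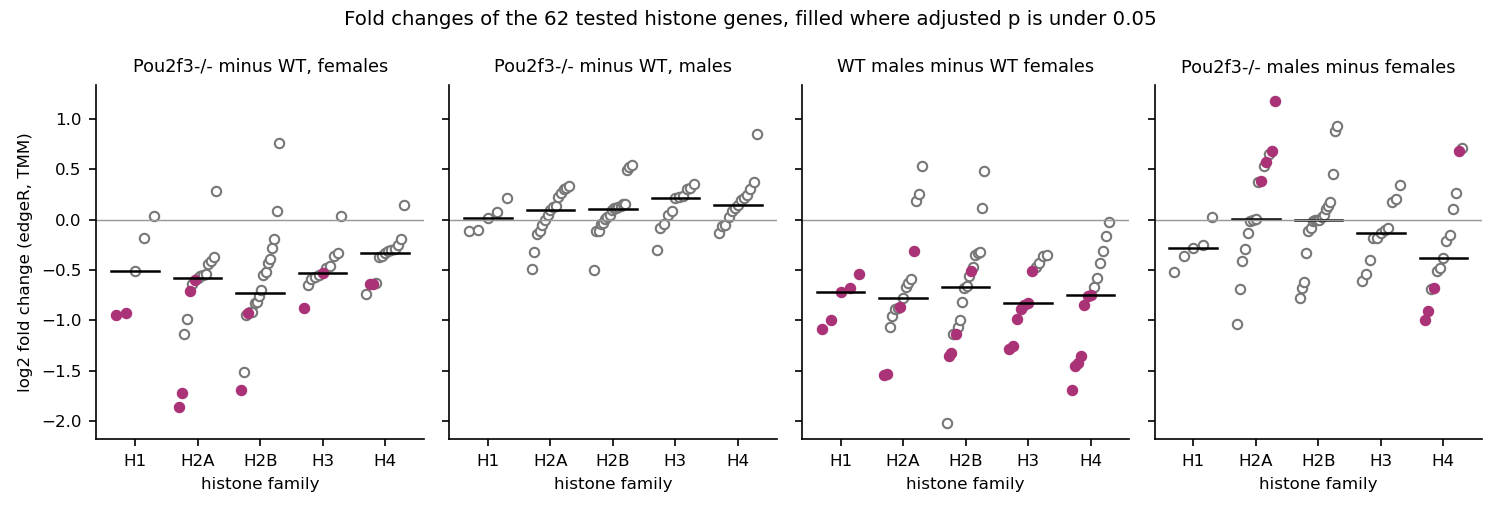
Log2 fold change (edgeR on TMM-scaled counts, y axis) of each of the 62 tested histone genes, grouped by histone family (x axis) in 4 comparisons; filled points had an adjusted p under 0.05 and bars are family medians. In females the median lies at -0.55 and in the comparison of WT males with WT females at -0.73, while the male genotype comparison centres on 0.10 with 0 genes called; per raw total the summed level is 1.04 and 1.24 times in the first and second of these, not lower.

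The summed level of all 67 members depended on how libraries were scaled, and the direction changed with it. On the TMM scale the WT female libraries stood at 376, 422 and 429 CPM and the Pou2f3-/- female libraries at 330, 326 and 241 CPM, without overlap, and the mean of the latter was 0.732 times the former, whereas it was 1.04 times per raw total, 0.867 times when the 20 most abundant genes were left out of the total, and 1.15 times per protein-coding total. All 12 genes called lower kept a lower mean per raw total, with 4 of them still free of overlap. Without the 20 most abundant genes all 12 did, with 8 free of overlap. Per protein-coding total 8 of 12 did, with 1 free of overlap, and the means of H2ac20, H4c18, H4c14 and H3c7 came to lie above those of WT females. Protein-coding genes took 57.6% to 65.5% of all counts in WT female, 52.1% to 56.2% in Pou2f3-/- female, 73.3% to 77.4% in WT male and 64.9% to 73.3% in Pou2f3-/- male libraries. Rn7s1, the 7SL RNA of the signal recognition particle, had a mean of 26479198 normalized counts in WT females and 7994853 in WT males. The part of this makeup in the histone differences was not tested.

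**Figure D2:**
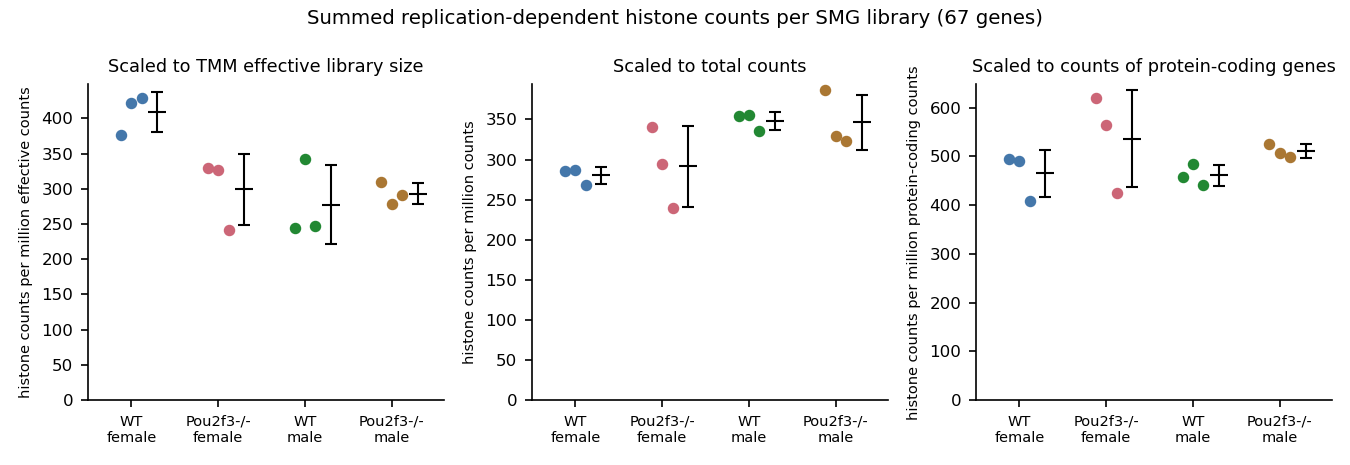
Summed counts of the 67 histone genes in each of the 12 SMG libraries (points, with mean and SD of 3 libraries beside them) as CPM of the TMM effective library size, of the raw total and of the protein-coding total. The WT females lie highest in the first panel, at 376 to 429, whereas in the second, at 268 to 287, they have the lowest mean of the 4 groups.

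In males the same genotype comparison called 0 of 62 members by edgeR, 2 of them having an unadjusted p under 0.05. DESeq2 also called 0 of the members, and 396 of all 17893 genes. Of all genes tested, 0.235% were called by edgeR in males, 0.134% lower and 0.101% higher. These 42 calls became 13 without WT male replicate 1 or replicate 3, and 635 without Pou2f3-/- male replicate 1. The median log2 fold change of the members was 0.10 against -0.04 for all genes, and it was 0 without WT male replicate 1, 0.01 without replicate 3 and 0.26 without replicate 2. The strongest member was H4c9, an H4 gene of chromosome 13, which had 22, 29 and 16 normalized counts in WT males and 44, 44 and 34 in Pou2f3-/- males. These groups did not overlap, but the change did not pass adjustment (log2 fold change 0.84, SE 0.28, adjusted p = 0.24). H2ac18 had 2975, 3695 and 3061 against 3484, 2974 and 3210 (log2 fold change -0.01, SE 0.11, adjusted p = 0.99). Together 2 members, H4c9 and H2bc7, had every Pou2f3-/- male above every WT male and 0 had every one below, where 6.51% and 7.95% of all genes were so placed. The summed level was 244, 342 and 247 CPM in WT males and 309, 279 and 292 CPM in Pou2f3-/- males, with overlap. The WT male replicate 2 lay above both other WT males in this sum and in 52 of the 62 tested members.

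Whether the genotype difference itself differed between the sexes was tested as an interaction. Of 62 members, 8 had a lower change in females than in males and 0 had a higher one, where 25.7% of all genes tested were called, 12.4% lower and 13.4% higher. The median of the members was -0.69 against 0.03 for all genes. H2ac18 differed by -0.70 (SE 0.15, adjusted p = 0.00855), H2bc7 by -2.23 (SE 0.54, adjusted p = 0.0124) and H4c14 by -0.84 (SE 0.21, adjusted p = 0.0135). H2ac6, H4c17, H3c2, H4c18 and H1f5 followed, with differences from -0.75 to -2.06 and adjusted p from 0.0256 to 0.0476. In each of these 8 genes the mean of WT females stood above that of Pou2f3-/- females on the TMM scale. The same held without the 20 most abundant genes in the total. Per raw total H4c17 had the higher mean in Pou2f3-/- females. Per protein-coding total H4c17, H4c18 and H4c14 did. Male log2 fold changes of the 8 ran from -0.01 for H2ac18 to 0.54 for H2bc7, and H4c17 was at -0.37 in females and 0.37 in males, neither of which passed the test. The size of the interaction depended on scaling: the summed level of all members in Pou2f3-/- over WT mice was 0.732 in females and 1.06 in males on the TMM scale, but 1.04 and 0.994 per raw total and 1.15 and 1.11 per protein-coding total, where the female ratio was no longer the lower one. Without the 20 most abundant genes in the total it stayed the lower one, at 0.867 against 1.09. All 8 genes kept a lower ratio in females than in males under each total, untested, but the difference of H2ac18 shrank from -0.70 to -0.096 per raw total and that of H2bc7 from -2.25 to -1.71 (log2 of ratios of group means). The number of calls rested on single libraries: 3 were called without WT male replicate 1 or replicate 3, and 5 without Pou2f3-/- female replicate 3 or Pou2f3-/- male replicate 2. It was 13 without Pou2f3-/- female replicate 2 and 14 without WT male replicate 2. The calls over all genes moved too, from 4604 to 2385 and 2898 without WT male replicates 1 and 3. They were 3435 without Pou2f3-/- female replicate 3, 3186 without Pou2f3-/- male replicate 2, 5141 without Pou2f3-/- female replicate 2 and 5412 without WT male replicate 2.

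**Figure D3:**
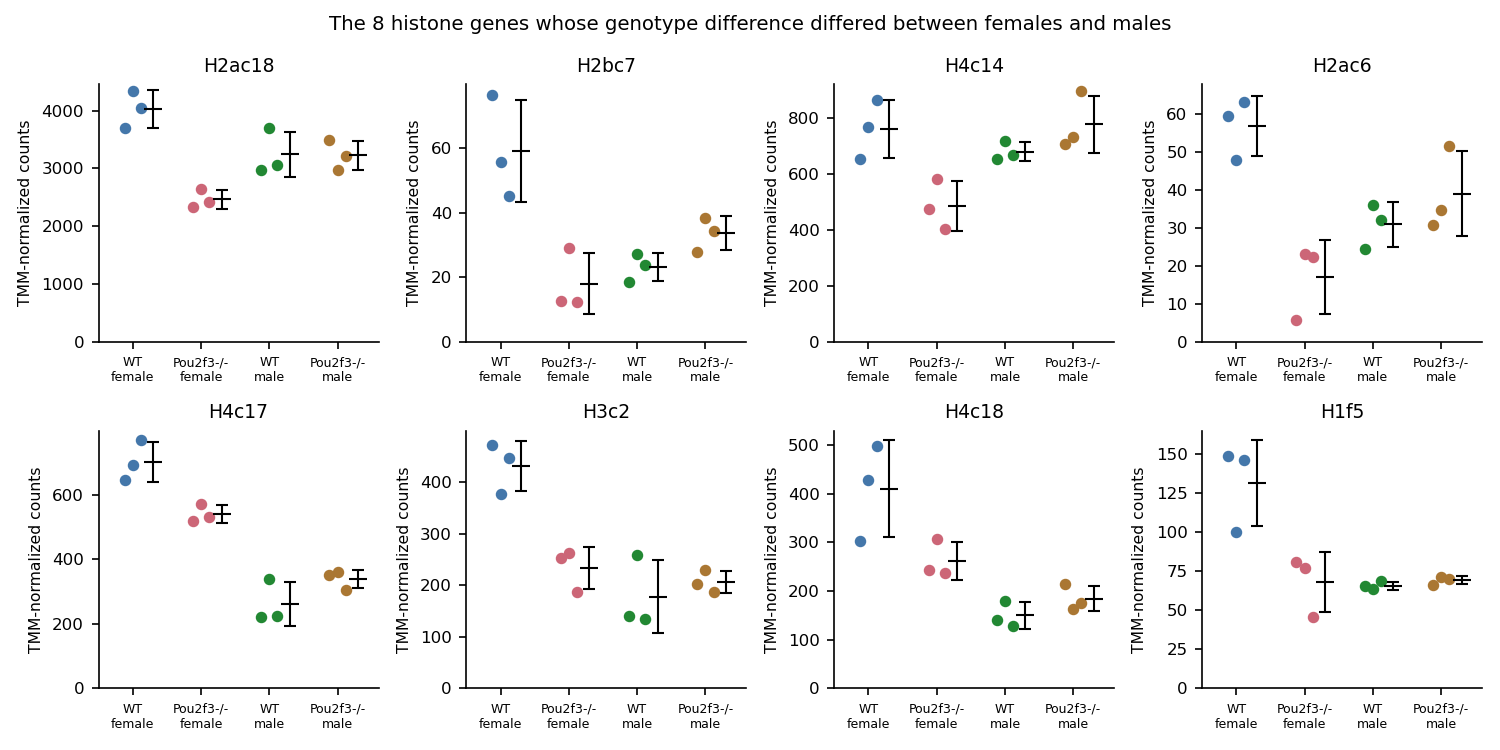
TMM-normalized counts (y axis, from 0) of the 8 histone genes with an adjusted p under 0.05 for the interaction, in each library of the 4 groups (points) with the group mean and SD. For H2ac18 the Pou2f3-/- females lie at 2328 to 2646, below all other libraries, whereas for H4c17 all 6 male libraries lie below all 6 female libraries.

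Male and female SMGs differ strongly in their ducts, and the next comparison asked how histone mRNAs differed between WT glands of the sexes. Of the 62 members, 27 were lower in WT males than in WT females and 0 were higher, where 36.5% of all genes tested were called, 16% lower and 20.5% higher. This comparison uses the same WT females as the genotype comparison, so the 2 sets of calls are not independent. The median log2 fold change was -0.73 against 0.06 for all genes, and 57 of 62 lay below 0. Of the 62, 32 had every WT male below every WT female (20.9% of all genes) and 0 had every one above (26.7%).

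The members with the smallest adjusted p here were H4 genes. H4c17 had 646, 694 and 770 normalized counts in WT females and 221, 339 and 224 in WT males (log2 fold change -1.43, SE 0.16, adjusted p = 1.7e-05). H4c18 had 302, 429 and 499 against 141, 180 and 129 (log2 fold change -1.45, SE 0.20, adjusted p = 0.000128). H4c9 had 79, 74 and 66 against 22, 29 and 16 (log2 fold change -1.69, SE 0.28, adjusted p = 0.000415). The groups were apart in all 3. H4c4 and H4c11 were lower too, by -0.74 and -1.35 on the log2 scale. In all, 7 of 13 H4 genes were called lower, where 16% of all genes tested were.

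Among H3 genes, H3c10 had 185, 167 and 127 normalized counts in WT females and 73, 67 and 60 in WT males (log2 fold change -1.26, SE 0.22, adjusted p = 0.000750). H3c2 had 471, 376 and 446 against 140, 259 and 134 (log2 fold change -1.28, SE 0.23, adjusted p = 0.000921). In all, 7 of 11 H3 genes were called lower, where 16% of all genes tested were. For H2B, H2bc8 fell from 636, 633 and 582 to 225, 292 and 223 (log2 fold change -1.32, SE 0.27, adjusted p = 0.00201) and H2bc12 from 193, 148 and 202 to 71, 104 and 71 (log2 fold change -1.14, SE 0.24, adjusted p = 0.00249). H2ac7 was the H2A gene with the smallest adjusted p (90, 69 and 59 against 30, 21 and 24, log2 fold change -1.54, SE 0.38, adjusted p = 0.00627). Summed with similar H2A genes, as given below, it was not called.

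All 5 linker histone genes were called lower in WT males, from -0.54 for H1f2 to -1.08 for H1f1, where 16% of all genes tested were called lower. H1f2 had 933, 1485 and 1014 normalized counts in WT males, with replicate 2 above the lowest WT female at 1342 (adjusted p = 0.0366). H2ac18 was lower by only 0.31 on the log2 scale (-0.31, SE 0.11, adjusted p = 0.0382), and H4c8 (-0.31, SE 0.17, adjusted p = 0.16) and H3c13 (-0.36, SE 0.23, adjusted p = 0.23) were not called.

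These directions hold on the TMM scale, where the summed level of WT males was 0.679 times that of WT females. Without the 20 most abundant genes in the total the ratio stayed low, at 0.615. Per protein-coding total the ratio was 0.992, and per raw total it turned, at 1.24. Of the 27 genes called lower, 17 kept a lower mean per raw total and 23 per protein-coding total. The groups were free of overlap in 23 of them on the TMM scale, 5 per raw total, 8 per protein-coding total and 27 without the 20 most abundant genes. H4c17, H4c18, H4c9, H3c10, H3c2, H2bc8 and H2bc12 were among those that stayed lower under both. H2ac18, H1f2, H2bc4 and H3c6 had higher means in WT males under both. Leaving out single libraries moved the count of calls from 27 to 13 without WT male replicate 1 and to 15 without WT male replicate 3 or without WT female replicate 3. Over all genes the calls went from 6523 to 5007, 5027 and 5293 in the same order.

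The last comparison set Pou2f3-/- males against Pou2f3-/- females. Of 62 members, 5 were higher and 3 lower in males than in females, where 43.5% of all genes tested were called, 23.2% higher and 20.3% lower. The median was -0.09 (all genes -0.02), and its sign rested on single libraries, being 0.07 without Pou2f3-/- female replicate 1, 0.05 without replicate 2 and -0.19 without replicate 3. The split of calls followed the normalization, with 2 higher and 11 lower under upper-quartile scaling and 4 higher and 9 lower when only protein-coding genes were fitted. H4c14 had 475, 581 and 403 normalized counts in Pou2f3-/- females and 707, 731 and 895 in males (log2 fold change 0.68, SE 0.15, adjusted p = 0.00258). H2ac20 rose from 354, 413 and 279 to 600, 518 and 558 (log2 fold change 0.68, SE 0.17, adjusted p = 0.00615). H2ac18, H2ac25 and H2ac6 were the other 3, at 0.39, 0.57 and 1.18. H4c17 had 520, 573 and 533 in females and 351, 360 and 306 in males (log2 fold change -0.68, SE 0.16, adjusted p = 0.00367), and H4c9 and H4c11 were lower too (log2 fold changes -0.998 and -0.90). Each of the 8 kept its direction per raw total, per protein-coding total and without the 20 most abundant genes. The groups were free of overlap in 7 members below (27.5% of all genes) and 5 above (27.3%).

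Members on chromosome 13 and those elsewhere are given apart for the comparisons of the sexes. In WT glands 25 of 50 tested chromosome 13 genes were called lower in males with a median of -0.84 (16% of all genes tested were lower), while 2 of 12 on chromosomes 3, 6 and 11 were, with a median of -0.32. In Pou2f3-/- glands the chromosome 13 genes had 1 higher and 3 lower calls with a median of -0.15, and the other 12 had 4 higher and 0 lower calls with a median of 0.42 (all genes 23.2% higher and 20.3% lower). The makeup of the histone counts needs no scaling between libraries and is given as a share. Chromosome 13 genes took 68.2%, 68.1% and 70.4% of histone counts in WT females and 71.4%, 71.9% and 69.9% in Pou2f3-/- females. They took 60.4%, 64.0% and 59.8% in WT males and 62.7%, 63.8% and 61.98% in Pou2f3-/- males. All 6 male libraries lay below all 6 female libraries, and the genotypes overlapped within each sex. H2A genes took 24.4% to 26.8% in WT females and 22.2% to 24.6% in Pou2f3-/- females, and 28.5% to 31.9% in the 6 male libraries. H2ac18 alone took 16.3% to 17.8% in WT females and 18.7% to 21.5% in WT males, and 12.2% to 17.4% and 18.4% to 19.5% in Pou2f3-/- females and males. The 12.2% was Pou2f3-/- female replicate 1, where H2ac19, of identical coding sequence, was given 479 counts. In WT female replicate 2 H2ac19 was given 192. The share of H2ac18 alone is therefore uncertain in these libraries. These shares were chosen after the fold changes were seen and are a description, with no test.

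**Figure D4:**
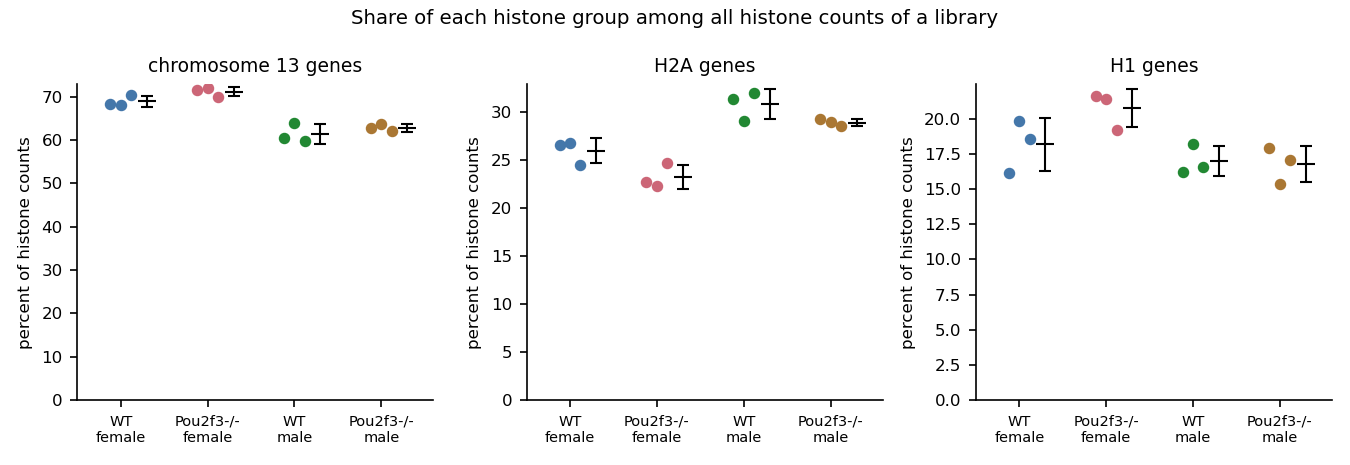
Share of all histone counts (percent, y axis from 0) taken by the 53 genes of chromosome 13, the 18 H2A genes and the 5 H1 genes in each library (points, with group mean and SD). The chromosome 13 share is 59.8% to 64.0% in the 6 male libraries and 68.1% to 71.9% in the 6 female libraries.

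Histone genes are so alike that reads can be shared out between copies by the counting program. The coding sequences of H2ac18 and H2ac19, of H2ac23 and H2ac24, of H2bc23 and H2bc24 and of H4c17 and H4c18 are identical. Within families, pairs of equal length agreed at 77.7% to 100% of coding positions in H2A and 93.6% to 99.8% in H3. H2ac19 and H3c14 had no stretch of 31 bases of their own. H2ac19 had 479 counts in Pou2f3-/- female replicate 1, 192 in WT female replicate 2 and 0 in the other 10 libraries. H3c14 had 244 counts in WT female replicate 1, 135 in Pou2f3-/- female replicate 1 and 0 elsewhere. H2bc23 had 77 counts and H2bc24 had 19 in WT female replicate 1, whereas replicate 2 had 4 and 66. The values of these copies are uncertain one by one.

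Members that shared at least 80% of their 31-base stretches were summed into 7 units and fitted again, an alternative added after the data were seen. The sum of H2ac18 and H2ac19 was lower in Pou2f3-/- females by 0.63 (log2 fold change -0.63, adjusted p = 0.00141) and by interaction (-0.62, adjusted p = 0.0179), and its difference between Pou2f3-/- males and females was no longer called (0.28, adjusted p = 0.0664). The sum of H4c17 and H4c18 was lower in Pou2f3-/- females (-0.47, adjusted p = 0.0292) and in WT males against WT females (-1.44, adjusted p = 1.4e-05). The sum of H3c10 and H3c11 was lower in WT males (-1.04, adjusted p = 0.00141). H2ac7 was called alone in that comparison, but its sum with H2ac10, H2ac12, H2ac13 and H2ac22 was not (-0.56, adjusted p = 0.0672). The sum of H2bc23 and H2bc24, which ran from 45 to 113 counts over the 12 libraries, was lower in Pou2f3-/- males than in Pou2f3-/- females (-0.74, adjusted p = 0.0372). H1f4 and H2bc6 overlap on the same strand and shared 26.2% of the stretches of H1f4, so their counts are also uncertain.

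**Figure D5:**
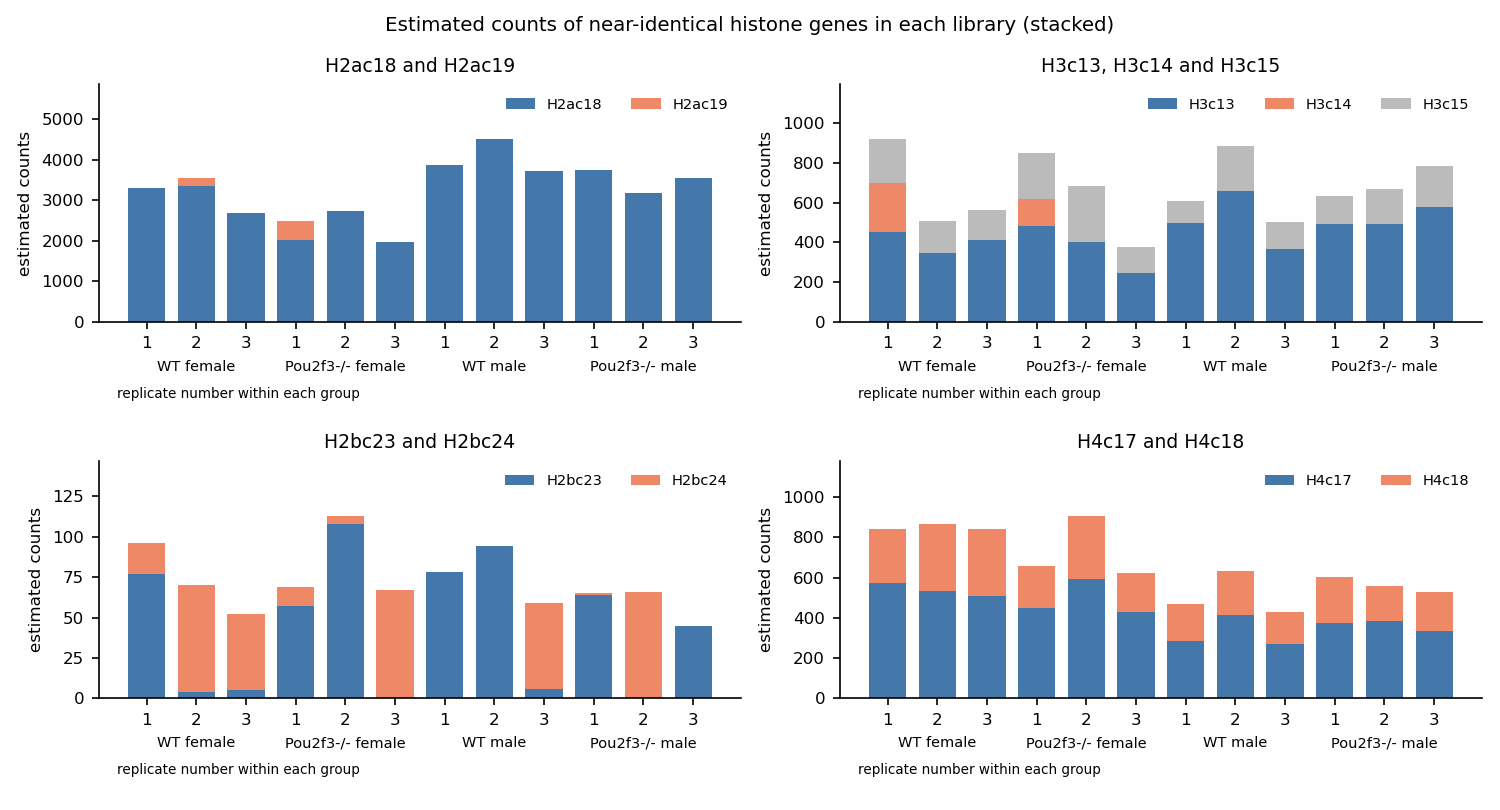
Estimated counts (stacked bars, y axis from 0) of 4 sets of near-identical histone genes in each of the 12 libraries, numbered by replicate within group. H2ac19 and H3c14 appear in 2 libraries each, and H2bc23 and H2bc24 alternate between libraries, with sums from 45 to 113.

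Members differ in their annotated models. In 24 members all models end over 100 bases after the hairpin, and in 38 all are short. Of the tested genes, 3 of 23 with long models and 9 of 34 with short models were lower in Pou2f3-/- females (19.3% of all genes tested), with medians of -0.39 and -0.62. In WT males 13 of 23 and 14 of 34 were lower (16% of all genes), with medians of -0.74 and -0.80. The difference between these classes was not tested.

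The genes around histone supply were followed through lists chosen by function. Among 22 genes of histone mRNA 3′-end formation, 7 were down-regulated and 2 up-regulated in Pou2f3-/- females (median -0.24), where 19.3% of all genes tested were lower and 17.6% higher. Cpsf2, a subunit of the cleavage complex, had 1104 to 1255 normalized counts in WT females and 697 to 740 in Pou2f3-/- females (log2 fold change -0.71, adjusted p = 0.000297). Snrpf, an Sm protein shared by the small nuclear ribonucleoproteins, fell by 1.07 (log2 fold change -1.07, adjusted p = 0.000991). Ncbp1 of the cap-binding complex fell by 0.54. Srrt and Mif4gd rose, by 0.93 and 0.71. Slbp, which binds the stem-loop, had 340 to 408 in WT females and 325 to 473 in Pou2f3-/- females and was not called (0.07, adjusted p = 0.74).

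Among 10 genes of histone gene transcription, 4 were higher and 3 lower in Pou2f3-/- females, where 36.9% of all genes tested were called. Gon4l, Cdk2 and Cramp1 rose by 0.58, 0.42 and 0.41 on the log2 scale. The cyclin E genes Ccne1 and Ccne2, which drive entry into S phase, fell by 1.55 and 0.99 (log2 fold changes -1.55 and -0.99), and Yy1 by 0.27. Npat was not called (0.23, adjusted p = 0.18). In males 0 of the 170 tested entries of all lists (Slbp stands in 2 of them) were called by edgeR in the genotype comparison (0.235% of all genes). Of these entries, 17 had an unadjusted p under 0.05 and 2 were called by DESeq2, which called 396 of 17893 genes.

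Of the histone genes that are expressed outside S phase, 11 were tested in females. Of these, 5 were down-regulated and 0 up-regulated (median -0.37), where 19.3% and 17.6% of all genes tested were. H2az1, which encodes the variant H2A.Z.1, had 2312 to 2672 normalized counts in WT females and 1405 to 1575 in Pou2f3-/- females (log2 fold change -0.73, adjusted p = 0.000825), and H2az2 fell by 0.70. H3f3a, which like H3f3b encodes H3.3, had 7849 to 10440 against 4204 to 6579 (log2 fold change -0.80, adjusted p = 0.00420), and H3f3b had 7347 to 8217 against 4762 to 6219 (log2 fold change -0.50, adjusted p = 0.0132). The ratio of replication-dependent to replication-independent counts, which needs no scaling, was 95.5, 95.5 and 88.3 per 100 in WT females and 113, 96.7 and 90.1 in Pou2f3-/- females, with overlap. It was 74.99, 82.1 and 71.5 in WT males and 79.05, 87.2 and 86.9 in Pou2f3-/- males, and in each genotype every male library lay below every female library.

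Histone chaperones, which carry histones to DNA, had 8 of 21 down-regulated and 2 up-regulated in Pou2f3-/- females (all genes 19.3% and 17.6%). Npm1, Nap1l1 and Ssrp1 fell by 0.73, 0.63 and 0.52, while Hjurp and Cabin1 rose by 0.88 and 0.55. In WT males 6 of the 21 were higher and 6 lower than in WT females (all genes 20.5% and 16%). Nap1l1 had 1529 to 1927 normalized counts in WT females and 760 to 949 in WT males (log2 fold change -1.02, adjusted p = 1.6e-05).

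Of 30 genes of S phase, 7 were down-regulated in Pou2f3-/- females and 0 up-regulated (median -0.22), a share of lower calls near the 19.3% of all genes tested. Fen1, the flap endonuclease of lagging-strand synthesis, fell by 0.87 (377 to 417 against 203 to 237 normalized counts, log2 fold change -0.87, adjusted p = 0.00104), Mcm4 of the replicative helicase by 0.66 and Pcna, the sliding clamp, by 0.48. In WT males 6 were lower and 1 was higher than in WT females, near the 16% of all genes that were lower. Of 25 genes of mitosis, 0 were called by edgeR in either of these comparisons (0 at an unadjusted p under 0.05 and 0 by DESeq2 in both), and Mki67 had 437 to 709 normalized counts in WT females and 452 to 890 in Pou2f3-/- females (0.07, adjusted p = 0.90). The summed level of the mitosis list ran from 29.5 to 52.7 CPM in WT females, 32.04 to 66.1 in Pou2f3-/- females, 25.9 to 61.3 in WT males and 24.1 to 44.8 in Pou2f3-/- males. Histone counts exceeded those of the S phase list in every library, at 263 to 412 histone counts per 100. The ratio was 334 to 412 in WT females, 303 to 354 in Pou2f3-/- females, 263 to 282 in WT males and 288 to 315 in Pou2f3-/- males. WT males lay below WT females and below Pou2f3-/- males without overlap. Pou2f3-/- females overlapped with WT females and with Pou2f3-/- males. These ratios were not tested.

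Markers of cells that could bring their own histone mRNA were read beside these results. In bulk RNA, fewer cells of a type and less RNA per cell cannot be told apart. Of 9 macrophage markers, 3 were lower in Pou2f3-/- females (19.3% of all genes) and 6 in WT males against WT females (16%). Beside the histone interaction, 6 of these 9 were called lower in the interaction too (12.4% of all genes; median -1.47, with 9 of 9 at an unadjusted p under 0.05), and 7 of 9 had an unadjusted p under 0.05 between genotypes in males (median 0.74, 0 called). Their summed level was 108 to 302 CPM in WT females, 91.3 to 149 in Pou2f3-/- females, 90.9 to 109 in WT males and 122 to 227 in Pou2f3-/- males. Of 17 lymphocyte markers 6 were tested, with Ptprc lower in WT males and 0 called in Pou2f3-/- females by edgeR (0 at an unadjusted p under 0.05, 0 by DESeq2), and the sum was 17.97 to 51.8 CPM in WT females, 17.04 to 29.6 in Pou2f3-/- females, 13.3 to 15.8 in WT males and 15.4 to 29.6 in Pou2f3-/- males. Of 5 tested plasma cell markers, Sdc1 and Derl3 were lower in Pou2f3-/- females (19.3% of all genes) and 1 in WT males against WT females (16%). Their interaction median was -2.13, with 0 called by edgeR and 1 by DESeq2. Whether the Sdc1 and Derl3 RNA came from plasma cells in this gland was not tested. The sum of 7 plasma cell markers was 86.5 to 123 CPM in WT females and 67.2 to 78.3 in Pou2f3-/- females, without overlap. It was 64.4 to 93.4 in WT males and 72.1 to 113 in Pou2f3-/- males. Of the 15 gland epithelium markers, 6 were lower and 1 higher in Pou2f3-/- females (median -0.32), where 19.3% and 17.6% of all genes tested were. In WT males 6 were higher and 5 lower than in WT females (all genes 20.5% and 16%). The summed erythroid level was at most 4.09 CPM in each group but the Pou2f3-/- males, where it ran from 3.87 to 11.7. The part of these cells in the histone differences was not tested.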

How the data were processed

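The mRNAs were measured by RNA-seq of ribosomal RNA-depleted total RNA (stranded, paired reads of 100 bases), 1 library per mouse. Per the labels and methods, the authors quantified reads with Salmon 1.10.1 against Gencode M35 (GRCm39). The deposited expected counts are estimated counts per gene, not all of them whole numbers, and reads shared by similar genes are split by Salmon. A second deposited table holds a normalized signal, in which the authors divided the estimated counts by factors specific to gene and library. How these factors were made is not given in the sources used here. Total counts were 47032175 to 67882207 per library, where 3 counts are 0.0442 to 0.0638 CPM, and such limits cover counting error only.

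Counts were rounded and fitted in edgeR 4.0.16 (R 4.3.3) by its quasi-likelihood test, with TMM scaling, filterByExpr and 1 mean per group over all 12 libraries. P-values were adjusted by Benjamini-Hochberg over 17893 genes, and 0.05 was the threshold. The same replicate numbers occur in all groups, but correlations of same-numbered libraries ran from -0.135 to 0.266, so the numbers were not taken to pair them. The script was tested on simulated data. Normalized counts are counts scaled to the mean effective library size. Levels per kilobase were computed per exon length. Alternatives were run with DESeq2 1.42.0 and limma 3.58.1 (on log2 of the authors' values plus a pseudocount of 1), with other scalings and filters, and without each library.

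Sequences, gene models and hairpins were read from GRCm39 with Gencode M39, in which 55563 of the 56065 gene identifiers were found, and promoter windows from RefSeq (GRCm38.p6). The members and lists were chosen with earlier results of these data known. Statistics are given in full for members past the threshold (at most the 10 with the smallest adjusted p in each direction and comparison) and for the most abundant member of each family. From each list at most 3 genes per direction are named, besides Slbp, Npat, Mki67, H3f3a and H3f3b. Of 192 listed genes, 188 were found. Plots were drawn with matplotlib 3.10.9.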

Additional observations from a re-analysis of the deposited data

Results flagged for a closer look

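Of the 62 tested members, 8 had a change between Pou2f3-/- and WT mice that differed between the sexes by the interaction test. The difference of the log2 fold changes, female minus male, was -0.70 for H2ac18, -2.23 for H2bc7, -0.84 for H4c14, -2.06 for H2ac6, -0.75 for H4c17, -1.09 for H3c2, -0.94 for H4c18 and -1.02 for H1f5. These are on the TMM scale, and per raw total the ratio of group means differed by only -0.096 (log2) for H2ac18 and by -1.71 for H2bc7, the smallest and largest of the 8, with no test. All 8 were negative, a share of the 62 close to the 12.4% of all genes tested that were called in that direction. DESeq2 called 11 of 62 members and 5539 of 17893 genes, and limma on the authors' normalized values called 17 of 62 members (all lower) and 4187 of 17893 genes in either direction, against 4604 by edgeR. H1f5 was the least stable, being called in 8 of 21 alternatives. H4c17 and H4c18 have the same coding sequence and do not count as separate evidence, and their sum differed by -0.82 (adjusted p = 0.0183).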

How the results depend on the processing

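No histone gene called in a comparison reversed its direction in any refit. Relative to calls kept, losses were most frequent in the interaction, with 30 lost and 137 kept, counted per gene and refit. Lost and kept calls were 64 and 530 between WT sexes, 19 and 243 in females and 14 and 161 between Pou2f3-/- sexes. Among 62 members the calls in females, 12, rose to 20 with DESeq2 and 27 in the authors' table (median -0.79). The calls over all 17893 genes went from 6611 to 6975 and 6420. With single libraries left out, 9 to 19 members were called, the 9 being without Pou2f3-/- female replicate 3 and the 19 without replicate 2. Over all genes the calls then ran from 4897 to 7071. Interaction calls, 8, were 17 in the authors' table (median -1.00061) and 3 to 14 with single libraries left out. Over all genes, 4604 interaction calls were 4187 in the authors' table and 2385 to 5562 with single libraries left out. In WT males against WT females 27 calls became 13 to 35 with single libraries left out, and the median was -1.03 in the authors' table. Over all genes, 6523 calls became 5007 to 6694 with single libraries left out. In Pou2f3-/- males against Pou2f3-/- females 8 calls became 13 under upper-quartile scaling, 13 for protein-coding genes only and 13 without a low-count filter, where 6 were higher and 7 lower. Over all genes, 7790 calls became 8039 of 17893, 6540 of 14272 and 7452 of 30910 in the same order. Upper-quartile scaling moved the median of all genes to 0.13 in females, 0.11 in the interaction and -0.18 between the Pou2f3-/- sexes. In males the count was 0 under all alternatives run. The calls over all genes in males, 42, became 13 to 635 with single libraries left out and 389 without a low-count filter. The interaction could not be fitted with only the groups compared.

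The ratio of summed histone levels depended on the total used. Pou2f3-/- over WT females was 1.04 per raw total, 0.867 without the 20 most abundant genes and 1.15 per protein-coding total. WT males over WT females was 1.24 per raw total and 0.992 per protein-coding total. Pou2f3-/- males over females was 1.19 per raw total and 0.776 without the 20 most abundant genes. Of the 27 genes called lower in WT males, 17 had a lower mean per raw total. Why the scalings differ was not tested. With a replicate block the calls were 12 in females, 0 in males, 7 in the interaction, 27 between WT sexes and 9 between Pou2f3-/- sexes. Low counts limit members such as H2ac6 and H2ac11.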

Other observations

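Scarna2 and Scarna13, small RNAs of the Cajal body, were lower in WT males than in WT females by 1.08 and 1.44 (log2 fold changes -1.08 and -1.44). Of 10 tested non-polyadenylated noncoding genes 5 were lower and 0 higher in WT males (all genes 16% and 20.5%). Of the 6 tested erythroid genes, 5 were higher in Pou2f3-/- males than in Pou2f3-/- females, led by Hbb-bs, a beta globin gene, at 3.58, where 23.2% of all genes tested were higher and 20.3% lower. In the same comparison, of 22 genes of histone mRNA 3′-end formation, 11 were higher and 4 lower, among them Ncbp1 at 0.61, Cpsf2 at 0.53 and Lsm10, a U7-specific subunit, at 1.19.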
